A study of Mus musculus with 10 samples.

Results

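Tll2, Nell1, Wfdc18, Cdh26, Shisa3 and Gdpd2 are 6 genes that stood among the largest increases when cochlear tissue of hypothyroid mice was set against that of euthyroid mice. They were chosen by that difference, 6 genes of 18725 in the table, so their own levels are given as a description with no test. All 6 passed the count filter, which kept 14862 genes. The tissue was the outer sulcus, an epithelial strip at the lateral edge of the cochlear duct that holds the root cells, dissected together with the spiral ligament beneath it. The 5 hypothyroid libraries came from C57BL/6J pups at postnatal day 10 whose mothers had drunk water with methimazole at 0.05%, which blocks hormone synthesis, sodium perchlorate (as monohydrate) at 1.0%, which blocks iodide uptake, and sucrose at 5.0%, from embryonic day 17 until that age. The 5 euthyroid libraries came from C57BL/6J pups of the same age whose mothers had drunk vehicle. The agents reached the pups through the mothers, and which litter each library came from was not known here, so litter and treatment cannot be told apart. Whether each library is a separate animal is not stated either, so p-values measure only the spread among these libraries. The extraction protocol in the labels speaks of femoral head cartilage at postnatal day 22. All other labels name the cochlear outer sulcus at postnatal day 10, on which the tissue and age given here rest. The read length was taken from that same protocol. The inner ear genes Otor and Coch averaged 6060 ± 797 and 261 ± 37.6 CPM in hypothyroid libraries, and 5479 ± 258 and 2868 ± 660 CPM in euthyroid libraries (CPM is counts scaled to library size; SD, n = 5 each).

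Thyroid hormone acts through nuclear receptors that bind paired copies of the letters AGGTCA and switch target genes on or off with the hormone's level. In the cochlea it is needed before the onset of hearing, when the epithelium matures and surplus immature tissue is lost. The 6 genes do not form a single pathway. Tll2 encodes a secreted metalloprotease of the tolloid family, whose best known member, BMP1, trims the ends of procollagens. Nell1 encodes a secreted glycoprotein that promotes the differentiation of bone-forming cells. Wfdc18 encodes a small secreted protein with a WAP domain, a fold typical of protease inhibitors. Cdh26 encodes a cadherin-like adhesion protein of epithelia. Shisa3 belongs to a family whose founding member, in Xenopus, holds immature Frizzled and FGF receptors in the endoplasmic reticulum. Gdpd2 encodes a membrane phosphodiesterase that splits glycerophosphodiesters outside the cell and is induced as osteoblasts differentiate.

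On GRCm38.p6 the genes lie on 6 chromosomes. Tll2 occupies chr19:41080940-41210848 on the minus strand with 21 exons in its main transcript, and the other 5 are on plus strands. Nell1 spans chr7:49975350-50863289 with 20 exons, and Wfdc18 only chr11:83709004-83711360 with 3 exons. Cdh26 spans chr2:178430515-178487366 with 14 exons, Shisa3 chr5:67607883-67613987 with 2 exons, and Gdpd2 chrX:100729836-100738901 with 16 exons. For Tll2 the RefSeq start site used here, chr19:41206774, lies inside the span above and not at its upstream end, 41210848. Below are the 100 bases before a RefSeq start site of each gene on GRCm38.p6. The bases are written 5′ to 3′ along the gene, with each CG pair in capitals. They are shown because these genes shared the direction of their difference but not the kind of sequence at which their transcripts begin.
Tll2 (chr19:41206775-41206874, - strand): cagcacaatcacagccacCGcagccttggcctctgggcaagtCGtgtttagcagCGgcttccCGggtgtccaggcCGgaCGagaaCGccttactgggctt
Nell1 (chr7:49975250-49975349, + strand): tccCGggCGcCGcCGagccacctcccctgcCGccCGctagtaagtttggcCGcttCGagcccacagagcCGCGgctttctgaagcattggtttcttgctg
Shisa3 (chr5:67607783-67607882, + strand): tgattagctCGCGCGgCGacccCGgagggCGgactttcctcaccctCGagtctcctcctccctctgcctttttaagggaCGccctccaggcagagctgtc
Wfdc18 (chr11:83708904-83709003, + strand): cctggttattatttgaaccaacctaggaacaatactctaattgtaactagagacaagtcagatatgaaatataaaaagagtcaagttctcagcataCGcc
Cdh26 (chr2:178430415-178430514, + strand): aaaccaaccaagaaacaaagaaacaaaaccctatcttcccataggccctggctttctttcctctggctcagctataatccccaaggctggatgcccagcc
Gdpd2, upstream start site (chrX:100729747-100729846, + strand): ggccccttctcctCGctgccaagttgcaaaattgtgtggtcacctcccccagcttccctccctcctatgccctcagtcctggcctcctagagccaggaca

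The first 3 windows hold 7 to 10 CG pairs each and the last 3 hold at most 1. Over the 250 bases upstream, Tll2 had 18 CG pairs, Nell1 22 and Shisa3 25, against 2 for Wfdc18, 0 for Cdh26 and 2 for the upstream start site of Gdpd2. The second start site of Gdpd2 had 7. Relative to base content (observed over expected CG pairs), Tll2 at 0.677 and Nell1 at 0.679 were close to the median promoter at 0.612, Shisa3 stood at 0.826, and Wfdc18 and the upstream start of Gdpd2 at 0.218 and 0.129. The GC content was 65.6% for Tll2, 72.0% for Nell1 and 69.6% for Shisa3, and 38.4% for Wfdc18, 42.8% for Cdh26 and 50.0% and 59.6% for the 2 starts of Gdpd2. The median of 18502 mouse promoters was 57.6%. The paired receptor element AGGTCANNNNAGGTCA was in none of the members' windows (250 bases upstream to 50 downstream, both strands) and in 1 of all 18502 windows (0.0054%). Single AGGTCA letters were in none either, against 14.2% of all windows. The RUNX core letters TGTGGT, present in 14.1% of windows, were at -159 to -154 in Tll2 (and reversed at 41 to 46), and at -66 to -61 from the upstream start of Gdpd2. TATAAA, present in 9.34% of windows, stood at -31 to -26 in Wfdc18 and at -207 to -202 in Gdpd2. A match is only a match of letters, and its absence says nothing about sites elsewhere.

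The secreted protease gene Tll2 was the steadiest member among hypothyroid libraries. It had 192, 178.5, 175, 177 and 191 CPM in hypothyroid libraries 1 to 5, against 7.46, 7.54, 4.97, 3.775 and 5.82 CPM in euthyroid libraries 1 to 5. The lowest hypothyroid library was 23.2 times the highest euthyroid one, and the log2 fold change was 4.94 (SE 0.13). Its coefficient of variation was 4.325% among hypothyroid libraries, where genes of like level had a median of 5.92%. Per length it reached 84.8 ± 4.68 TPM in hypothyroid and 2.30 ± 0.729 TPM in euthyroid libraries (TPM adjusts for transcript length; SD, n = 5 each).

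Nell1 was the most abundant member by counts. It had 227, 226, 249.7, 183 and 204 CPM in hypothyroid libraries 1 to 5, against 10.4, 10.2, 6.66, 6.48 and 12.2 CPM in euthyroid libraries 1 to 5. Every hypothyroid library lay at least 15.0 times above every euthyroid one (log2 fold change 4.57, SE 0.17). Per length it had 208 ± 21.1 TPM in hypothyroid and 7.498 ± 2.11 TPM in euthyroid libraries (SD, n = 5 each).

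Wfdc18 had the widest spread of the 6 relative to its mean among hypothyroid libraries, and its fitted difference was close to that of Tll2. Hypothyroid libraries 1 to 5 held 25.6, 93.6, 51.1, 71.1 and 67.1 CPM, against 1.03, 1.29, 2.60, 2.197 and 2.61 CPM in euthyroid libraries 1 to 5. Library 1 was the low one among the hypothyroid libraries and still 9.82 times the highest euthyroid library (log2 fold change 4.99, SE 0.45). That is above Tll2, but below it without hypothyroid library 2 (4.79, against 4.95 for Tll2), with the Y-linked covariate (4.82 against 4.94) and in other fits. Because its transcript is only 521 bases long, it was the most abundant member per length, at 328 ± 134 TPM in hypothyroid and 8.80 ± 3.22 TPM in euthyroid libraries (SD, n = 5 each).

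Cdh26 was the least abundant member. Its levels in hypothyroid libraries 1 to 5 were 11.7, 17.3, 16.1, 17.3 and 14.04 CPM, and in euthyroid libraries 1 to 5 they were 0.594, 0.808, 0.959, 0.338 and 0.333 CPM. The groups were 12.2-fold apart at their closest (log2 fold change 4.64, SE 0.21). Only 55 counts stood behind the 5 euthyroid values, against 1621 over the hypothyroid libraries, so its euthyroid level is known least well.

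Shisa3 had 38.3, 14.4, 29.8, 35.8 and 28.3 CPM in hypothyroid libraries 1 to 5, against 2.32, 1.51, 0.903, 0.845 and 1.94 CPM in euthyroid libraries 1 to 5. Hypothyroid library 2 stood well below the other 4, and the closest approach of the groups was 6.18-fold, the smallest among the members (log2 fold change 4.27, SE 0.35). Gdpd2 had 23.6, 22.2, 25.2, 15.4 and 20.4 CPM in hypothyroid libraries 1 to 5, against 1.19, 0.754, 1.18, 1.18 and 1.55 CPM in euthyroid libraries 1 to 5. Its groups were 9.93-fold apart at their closest (log2 fold change 4.18, SE 0.17).

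**Figure D1:**
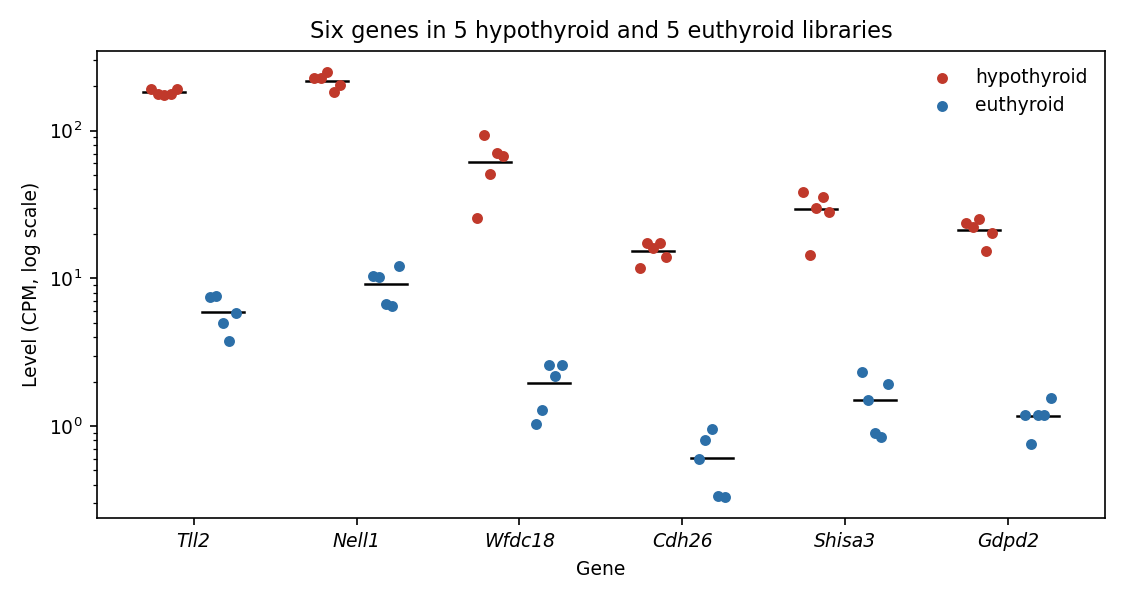
Level of each gene in CPM on a log axis, 1 point per library, with the 5 hypothyroid libraries left of the 5 euthyroid ones and a bar at each group mean. For every gene the hypothyroid points lie above all euthyroid points, with the smallest gap for Shisa3 (6.18-fold) and the widest for Tll2 (23.2-fold).

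Differences were widespread in this tissue, which sets the scale for these values. By the quasi-likelihood test of edgeR at a Benjamini-Hochberg adjusted p under 0.05, 71.8% of the 14862 genes were called, 37.7% higher and 34.1% lower in hypothyroid libraries. In 29.4% of genes all 5 hypothyroid libraries lay above all 5 euthyroid ones, as they did in all 6 members. Nothing is read from that count, since the members were chosen for it. Among 3400 genes that were higher with no overlap and averaged at least 5 CPM, the members ranked 2 (Wfdc18), 3 (Tll2), 5 (Cdh26), 6 (Nell1), 8 (Shisa3) and 10 (Gdpd2) by fold. The genes between them that are not members were Agtr2 at rank 1 (log2 fold change 5.41), Lyve1 at 4 (4.87), Lama1 at 7 (4.49) and Cldn6 at 9 (4.23). Crym, just outside at rank 11, had 4.17, and Gdpd2, just inside, 4.18. The check genes of the treatment were lower: Hr, a textbook target of thyroid hormone, had 5.58 ± 0.309 CPM in hypothyroid and 111 ± 8.57 CPM in euthyroid libraries (SD, n = 5 each), and Klf9, a transcription factor gene induced by the hormone, had 23.6 ± 8.29 CPM in hypothyroid and 279 ± 61.5 CPM in euthyroid libraries.

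Depth was even, with 19298261 to 19407657 counts in hypothyroid and 19781993 to 20064063 in euthyroid libraries. The composition factors of the TMM scaling averaged 1.096 in hypothyroid and 0.912 in euthyroid libraries. With library sizes alone the genes tested had a median of 0.30 on the log2 scale in place of 0.04, and 74.7% rather than 52.5% of called genes were higher. Differences below about that size therefore have no fixed direction, and the 7 called relatives whose sign flipped under some alternative (Atraid, Itgb1, Ctnna1, Ctnnd1, Shisa4, Lrp5 and Fgfr2) are named. None of the tested chromosome neighbours changed sign under the alternatives run.

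Levels of cell type markers differed between the groups along with the members. In bulk tissue, fewer cells of a type, less of a neighbouring tissue in the dissection and less RNA per cell cannot be told apart. Of all genes tested 37.7% were called higher and 34.1% lower. Of 9 root cell and outer sulcus markers 6 fell, 2 rose (Dpp10 and Aqp5) and 1 did not pass, with summed levels of 3350 to 4059 CPM in hypothyroid and 8043 to 8788 CPM in euthyroid libraries. All 8 bone markers were called lower, with sums of 80.4 to 125.8 CPM in hypothyroid libraries, against 1103 to 1694 CPM in euthyroid libraries. The smallest of these calls, Alpl (log2 fold change -0.47, edgeR adjusted p = 0.0277), was lost with library sizes alone, with upper quartile factors, in the limma fits and without 5 of the libraries taken singly (up to 0.293). Of 8 fibrocyte markers of the spiral ligament 5 fell and 2 rose (Tgfbi and Aqp1), and of 7 tested chondrocyte markers 5 fell and 1 rose (Matn1). All 6 markers of blood endothelium were called lower, although Pecam1 and Cdh5 lost their calls and changed sign with library sizes alone. Of 4 tested supporting cell markers 3 fell, and Prox1 was called higher, but not without hypothyroid library 5 or euthyroid library 2 or 3. All 8 macrophage markers rose (412 to 545 CPM in hypothyroid and 263 to 291 CPM in euthyroid libraries), as did 6 of 7 melanocyte markers (892 to 1694 CPM in hypothyroid and 559 to 774 CPM in euthyroid libraries). Of 8 hair cell markers 6 fell and 1 rose (Myo7a), and the outer hair cell gene Slc26a5 was at 0 in all hypothyroid libraries. Skeletal muscle markers were near 0, at 2.525 to 3.71 CPM in hypothyroid and 1.08 to 2.03 CPM in euthyroid libraries. The part of these cells in the members' differences was not tested.

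The members differed in how evenly they were raised. Among hypothyroid libraries the coefficient of variation ran from 4.325% for Tll2 through 11.6% for Nell1, 15.6% for Cdh26 and 17.6% for Gdpd2 to 31.8% for Shisa3 and 41.0% for Wfdc18. Wfdc18 varied more than 99.8% of the genes within a factor of 2 of its level, whose median was 6.21%, and Shisa3 more than 99.2% of those near its own, with a median of 7.19%. Wfdc18 and Shisa3 had their extremes in the same pair of libraries, the other way round. Hypothyroid library 1 had the least Wfdc18 and the most Shisa3, and library 2 had the most Wfdc18 and the least Shisa3, over ranges of 3.66-fold and 2.67-fold, while library 4 was the second highest in both genes. The bone markers summed to 125.8 CPM in library 1 and 80.4 CPM in library 2, the melanocyte markers to 960 and 1303 CPM, and the macrophage markers to 452 and 526 CPM. Fibrocyte markers summed to 11830 CPM in library 1 and 10420 CPM in library 2. Single genes carried much of these sums. Over the hypothyroid libraries Alpl averaged 61.4 CPM among bone markers, Dct 857 CPM among melanocyte markers and Otor 6060 CPM among fibrocyte markers. Y-linked genes summed to 291, 5.52, 167, 299 and 5.23 CPM in hypothyroid libraries 1 to 5. In euthyroid libraries 1 to 5 they summed to 279, 322, 308, 320 and 4.55 CPM. High and low libraries were thus unevenly spread over the groups, and hypothyroid library 3 lay between them. Hypothyroid libraries 4 and 5, which also differed in Y-linked genes, had 1694 and 892 CPM of melanocyte markers. They held 71.1 and 67.1 CPM of Wfdc18 and 35.8 and 28.3 CPM of Shisa3. The part of these in the order of the libraries was not tested. In euthyroid libraries the coefficients lay between 24.1% for Gdpd2 and 46.1% for Cdh26. Counting error alone would give 21.7% and 30.15% for these genes. It would give 9.64% for Tll2 and 7.74% for Nell1, whose coefficients were 27.4% and 27.3%. Among euthyroid libraries Tll2 and Nell1 varied more than 93.5% and 95.9% of genes of like level, and Gdpd2 more than 49.1%.

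**Figure D2:**
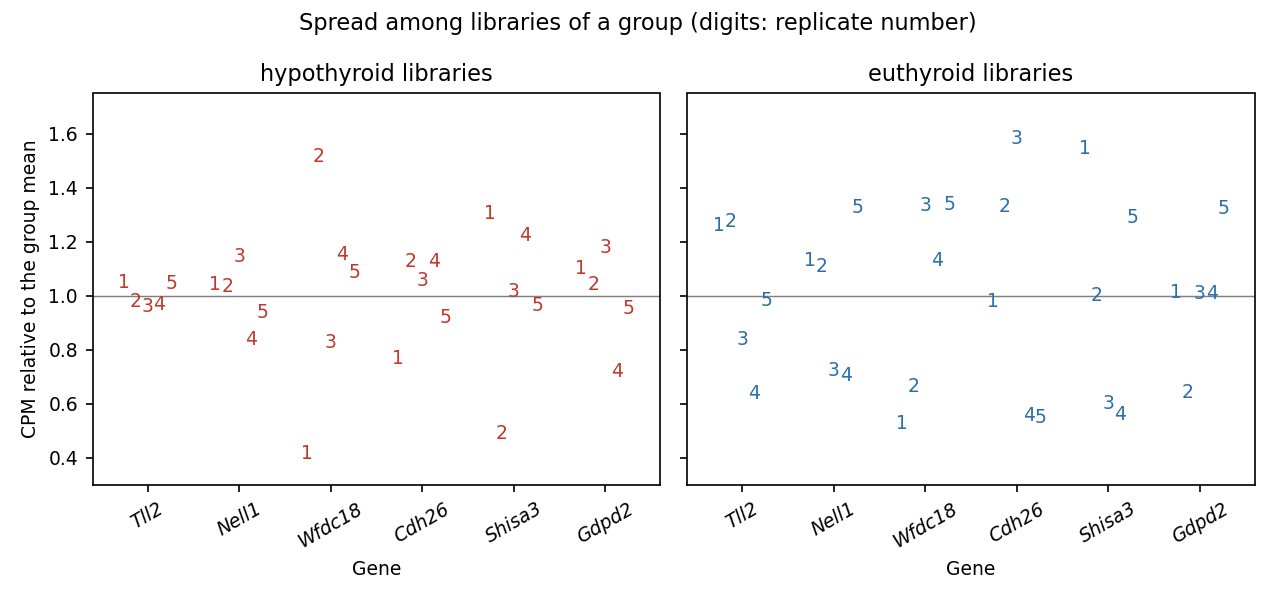
CPM of each gene divided by the mean of its group, with hypothyroid libraries in the left panel and euthyroid libraries in the right, and each library drawn as its replicate number. In the left panel Tll2 is tightly packed, whereas Wfdc18 has library 2 at the top and library 1 at the bottom and Shisa3 has library 1 at the top and library 2 at the bottom.

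Likeness of profiles was measured as the root mean square difference of centred log2 CPM over the 10 libraries, so genes of like fold come out as alike by construction. Among the members, Tll2 and Nell1 were closest (0.283) and Wfdc18 and Shisa3 farthest apart (1.05). Of 11978 other genes averaging at least 5 CPM, Agtr2, an angiotensin II receptor gene, was nearest to Tll2 (0.233). Crym, the gene of a thyroid hormone binding protein of the cytosol, was nearest to Nell1 (0.258) and to Shisa3 (0.428). Crym averaged 657 ± 74.9 CPM in hypothyroid and 36.4 ± 8.20 CPM in euthyroid libraries (SD, n = 5 each). Cldn6, a tight junction gene, was nearest to Cdh26 (0.459) and to Gdpd2 (0.259). Lyve1, a receptor gene of lymphatic endothelium and some macrophages, was nearest to Wfdc18 (0.523), and among hypothyroid libraries it too had a wide SD, at 41.7 ± 15.0 CPM, against 1.42 ± 0.379 CPM in euthyroid libraries (n = 5 each). Further genes among the nearest 3 of a member were Lama1 for Nell1 (0.411) and Wfdc18 (0.663), B3gat1 (0.515) and Col14a1 (0.516) for Shisa3, and Smoc2 (0.327) and Sfrp2 (0.34) for Gdpd2.

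The protease relatives of Tll2 moved little or the other way. Bmp1, the abundant tolloid protease of connective tissue, rose slightly to 393 ± 11.3 CPM in hypothyroid libraries, against 341 ± 15.2 CPM in euthyroid libraries (SD, n = 5 each), a log2 fold change of 0.20 with an SE of 0.04 (edgeR adjusted p = 0.000706). Tll1 fell to 5.54 ± 0.479 CPM, against 11.7 ± 0.872 CPM (log2 fold change -1.08, adjusted p = 7.87e-08). Per length, Tll2 made up 22.8% ± 0.968 of the TPM of these 3 genes in hypothyroid and 1.06% ± 0.349 in euthyroid libraries. Bmp1 remained the most abundant of them at 284 ± 5.40 TPM in hypothyroid and 211 ± 5.34 TPM in euthyroid libraries.

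Genes of known tolloid substrates and helper proteins were mixed. Of 24 tested genes in the list (both protease relatives included) 9 rose, 13 fell and 2 did not pass, with a median log2 fold change of -0.64, against 0.04 over all genes. The largest among the called were all lower. The log2 fold change was -4.17 for Dmp1, a bone matrix gene, -3.89 for Col1a1 and -2.77 for Col7a1, the anchoring fibril collagen gene. Col1a1 had 24.4 ± 8.29 CPM in hypothyroid and 361 ± 117 CPM in euthyroid libraries, far under its partner chain Col1a2 at 5879 ± 295 CPM in hypothyroid and 6228 ± 309 CPM in euthyroid libraries (adjusted p = 0.181 for Col1a2, whose sign flips with library sizes alone). Why the counts of these chains lie so far apart in every library is not known from the files, so the Col1a1 value is in doubt. Pcolce2, which encodes an enhancer of procollagen trimming, fell to 13.2 ± 0.807 CPM in hypothyroid libraries, against 75.7 ± 7.65 CPM in euthyroid libraries. The small proteoglycan genes Ogn and Bgn rose, by 2.56 and 1.43 on the log2 scale.

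Nell2, the closest homologue of Nell1, fell. It averaged 45.2 ± 9.30 CPM in hypothyroid and 121 ± 8.46 CPM in euthyroid libraries (SD, n = 5 each), a log2 fold change of -1.42 with an SE of 0.12 (edgeR adjusted p = 8.33e-07). Nell1 was thus 84.7% ± 2.37 of the TPM of this pair in hypothyroid and 8.04% ± 2.36 in euthyroid libraries. Of 9 tested partners (Nell2, receptors and osteogenic factors) 3 rose, 5 fell and 1 did not pass, with a median of -0.17. Robo2, whose family binds NELL proteins, rose by 0.72, and Runx3, at 0.510 CPM in hypothyroid and 1.55 CPM in euthyroid libraries, fell by 1.58 on the log2 scale. Runx2, the osteoblast factor known to act on Nell1, had 15.7 ± 5.36 CPM in hypothyroid and 16.6 ± 4.04 CPM in euthyroid libraries (adjusted p = 0.776). The Nell1 receptor gene Cntnap4 (-0.31) lost its call, and Atraid (-0.17) and Itgb1 (-0.25) lost theirs and changed sign, with library sizes alone.

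**Figure D3:**
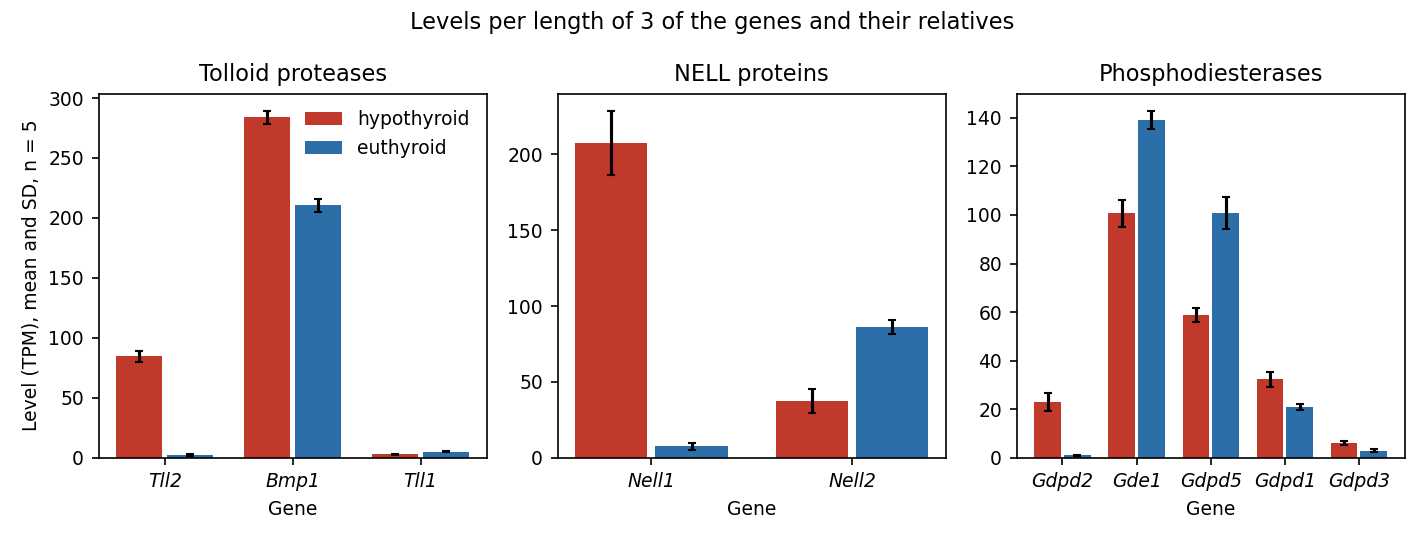
Mean TPM with SD (n = 5) of Tll2, Nell1 and Gdpd2 beside their relatives, hypothyroid bars left of euthyroid ones, on linear axes from 0. Nell1 stands above Nell2 in hypothyroid libraries and far below it in euthyroid ones, while Tll2 stays under Bmp1 and Gdpd2 under Gde1 in both groups.

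No tested WAP domain gene came near Wfdc18. Besides Wfdc18 itself 17 of the 18 listed genes were in the table and 9 were tested, of which 1 rose, 4 fell and 4 did not pass, and the median log2 fold change was -0.65, also with Wfdc10 set to its bound. Wfdc18 made up 53.5% ± 10.4 of the TPM of the WAP genes in hypothyroid and 3.22% ± 1.19 in euthyroid libraries. Wfdc2, an abundant epithelial member, had 52.2 ± 10.2 CPM in hypothyroid and 49.8 ± 3.27 CPM in euthyroid libraries (edgeR adjusted p = 0.593, and called higher with library sizes alone). Slpi, Wfikkn1 and Wfikkn2 did not pass, at log2 fold changes of -0.01, -0.65 and -0.03 (adjusted p = 0.98, 0.161 and 0.859). Wfikkn1 was called with the Y-linked covariate and without euthyroid library 2 (down to 0.0208). Wfdc1 fell to 8.81 ± 1.98 CPM, against 17.2 ± 1.24 CPM (adjusted p = 5.61e-06). Wfdc3 rose by 0.63 on the log2 scale (adjusted p = 0.0263, and 0.00302 to 0.0771 over the alternatives). It lost its call without hypothyroid library 2 or 4 or euthyroid library 2 or 3, each taken singly, and in the fits on log2(FPKM + 1) and log2(TPM + 1) and with the replicate block.

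The 3 WAP genes with the largest drops lie on chromosome 2 and had 0 to 4 counts over the hypothyroid libraries. Wfdc16 (chr2:164634701-164638808) had 4 counts over the hypothyroid and 889 over the euthyroid libraries (9.81 ± 0.582 CPM), or 260-fold lower with a 95% counting interval of 101 to 957. Wfdc8 (chr2:164596458-164613626) had 2 counts against 192, or 112-fold lower with an interval of 30.7 to 935. Wfdc10 (chr2:164656046-164657368) had 0 counts against 82 and was at least 32.0-fold lower, taking 3 counts over the group as the floor. These intervals are exact binomial and cover counting error only. Beside Wfdc18 on chromosome 11 the picture was different. Its neighbours Wfdc17, 2734 bases before it, and Wfdc21, 35579 bases after it, had 20 and 12 counts over the hypothyroid libraries, against 10 and 12 over the euthyroid libraries, too few to test.

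Partners of Cdh26 were mostly slightly lower with the TMM scaling, but not with library sizes alone. Of 12 tested cadherins, catenins and integrins 9 fell, 1 rose and 2 did not pass, with a median log2 fold change of -0.30. Of all genes tested 34.1% were called lower. With library sizes alone 4 of the 12 fell and 4 rose, with a median of -0.03. The cadherin genes Cdh4 and Cdh3 and the neural catenin gene Ctnna2 fell most, by 1.59, 1.44 and 1.42 on the log2 scale. The E-cadherin gene Cdh1, a marker of epithelium, had 446 ± 34.3 CPM in hypothyroid and 443 ± 25.9 CPM in euthyroid libraries (SD, n = 5 each; edgeR adjusted p = 0.883). With library sizes alone Cdh1 and the beta-catenin gene Ctnnb1 (log2 fold change -0.01) were called higher. Under that scaling Ctnna1 (-0.14) turned to higher, Ctnnd1 (-0.25) and Itgb1 (-0.25) changed sign without a call, and Cdh2 (-0.34) lost its call. Itga4, whose integrin was reported to bind CDH26 in human cells, rose to 47.8 ± 3.79 CPM in hypothyroid libraries, against 32.0 ± 2.25 CPM in euthyroid libraries (adjusted p = 1.33e-06). The beta integrin gene Itgb7 was called lower, at 0.726 ± 0.129 CPM in hypothyroid and 1.10 ± 0.253 CPM in euthyroid libraries (log2 fold change -0.59, adjusted p = 0.0308). It lost that call with library sizes alone and in other fits. Itgae was too low to test, with 25 counts over the hypothyroid and 20 over the euthyroid libraries.

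The other Shisa genes moved both ways, most of them lower. Shisa9, which encodes an auxiliary protein of glutamate receptors, was the one other Shisa gene that rose, with 8.03 ± 1.02 CPM in hypothyroid and 3.34 ± 0.646 CPM in euthyroid libraries (log2 fold change 1.26, edgeR adjusted p = 1.04e-06). Shisa2 fell to 51.5 ± 1.78 CPM in hypothyroid libraries, against 182 ± 13.6 CPM in euthyroid libraries (log2 fold change -1.82). Shisa6, at 0.416 CPM in hypothyroid and 1.87 CPM in euthyroid libraries, fell by 2.15, Shisa7 by 0.81 and Shisa5 by 0.70 on the log2 scale. Shisa8 (-0.45) and Shisa4 (-0.16) were called lower as well, but lost that call with library sizes alone, where Shisa4 changed sign. Shisa3 was 8.36% ± 2.33 of the TPM of the 8 Shisa genes in hypothyroid and 0.252% ± 0.09996 in euthyroid libraries.

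Receptors that Shisa proteins are known to act on moved both ways. With the other Shisa genes, the list of 23 held 7 that rose, 14 that fell and 2 that did not pass (median -0.24). Fzd2 and Fzd1 rose by 1.23 and 0.90, and Fzd4 and Fzd6 fell by 1.37 and 1.05 on the log2 scale. Of the FGF receptor genes Fgfr1 rose to 470 ± 33.6 CPM in hypothyroid libraries, against 355 ± 20.8 CPM in euthyroid libraries (log2 fold change 0.40). Fgfr3 fell to 20.4 ± 2.15 CPM, against 62.3 ± 9.75 CPM (-1.61), and Fgfr4 fell by 0.51. Fgfr2 (-0.24) and the Wnt co-receptor gene Lrp5 (-0.19) were called lower but changed sign with library sizes alone. Genes commonly read as outputs of Wnt and FGF signalling were split too, with 3 of 14 higher, 6 lower and 5 not passing (median -0.03). The Wnt feedback genes Sp5 and Axin2 rose by 1.26 and 0.62, whereas Notum fell by 1.55, and the FGF feedback gene Spry4 fell by 1.35. With library sizes alone 8 of these 14 were higher.

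Of the 5 tested phosphodiesterase relatives of Gdpd2, 2 were called higher and 3 lower (median -0.69). Calls were common, at 71.8% of all genes tested, so nothing is read from that count. Gpcpd1, an enzyme gene of choline metabolism, fell to 52.5 ± 7.81 CPM in hypothyroid libraries, against 393 ± 143 CPM in euthyroid libraries (SD, n = 5 each; log2 fold change -2.90, edgeR adjusted p = 1.08e-05). Gdpd5 fell by 1.03 and Gde1 by 0.69, and Gdpd3 and Gdpd1 rose by 0.79 and 0.39 on the log2 scale. Gdpd2 was 10.4% ± 1.755 of the summed TPM of Gde1 and Gdpd1 to Gdpd5 in hypothyroid and 0.4005% ± 0.0891 in euthyroid libraries. Among these 6 genes it ranked 4 in hypothyroid and 5 in euthyroid libraries. That sum and ranking leave out Gpcpd1, which had 39.5 ± 5.52 TPM in hypothyroid and 253 ± 89.3 TPM in euthyroid libraries.

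**Figure D4:**
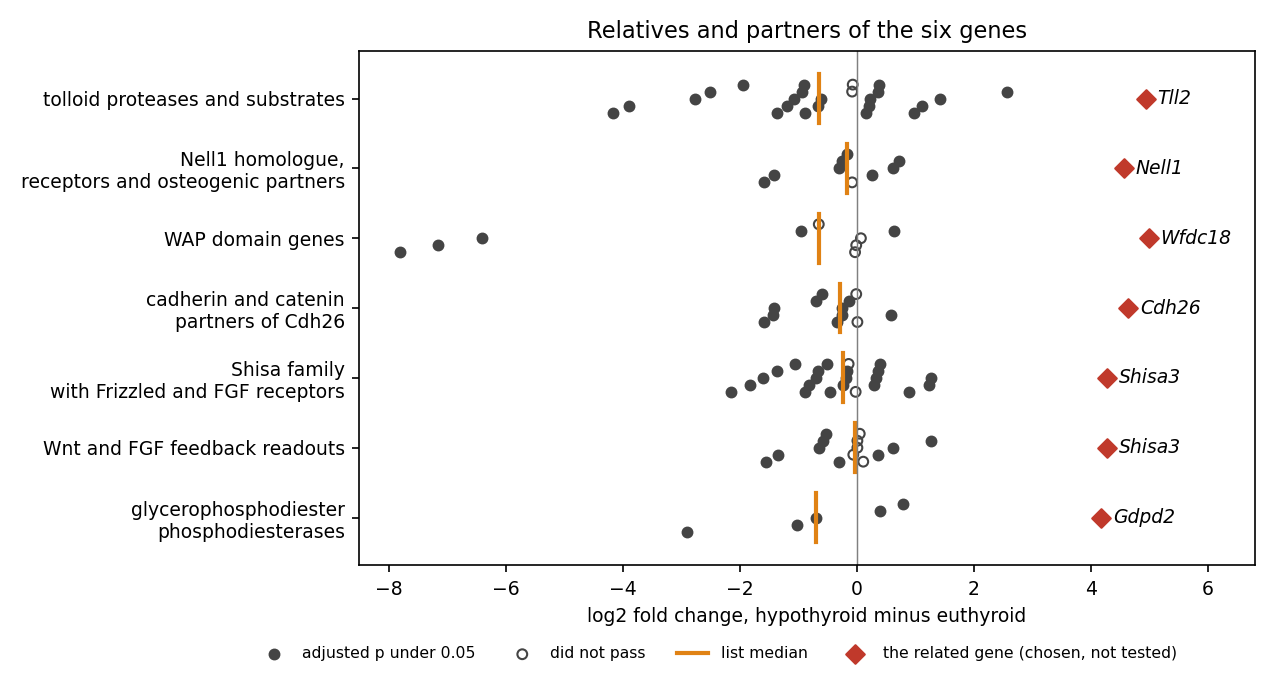
Log2 fold changes (hypothyroid minus euthyroid) of the tested relatives and partners of each gene, 1 row per list, with filled points for adjusted p under 0.05, open points for the rest, a bar at the list median and a diamond for the related gene itself. The diamonds lie between 4.18 and 4.99, and the list medians between -0.69 and -0.03.

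The genes next to the members on the chromosome were compared as well. Opalin, known from myelinating glia, starts 3826 bases past the end of Tll2 on the same strand. It had 117 counts over the hypothyroid libraries, against 2 over the euthyroid libraries, or 50.0-fold higher with a counting interval of 13.5 to 417.5. Even so it reached only 1.10 ± 0.334 CPM. On the other side of Tll2, Tm9sf3, whose span touches it, fell by 0.33 (a call lost with library sizes alone) and Pik3ap1 by 1.70 on the log2 scale. Fam217b, 6086 bases before Cdh26 on the same strand, rose to 12.5 ± 1.39 CPM in hypothyroid libraries, against 4.69 ± 0.341 CPM in euthyroid libraries (log2 fold change 1.41, edgeR adjusted p = 9.35e-09). Cdh4, 955056 bases after Cdh26, went the other way, at 3.45 ± 0.796 CPM in hypothyroid and 10.4 ± 1.53 CPM in euthyroid libraries (log2 fold change -1.59, adjusted p = 2.19e-07). Kif4, which ends 2564 bases before Gdpd2 on the same strand, rose to 4.08 ± 0.941 CPM, against 1.64 ± 0.503 CPM (log2 fold change 1.32, adjusted p = 6.46e-05).

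Neighbours of the remaining members differed less. Around Shisa3, Bend4 rose by 0.63 and Atp8a1 by 0.36 on the log2 scale. Dlg3, after Gdpd2, fell by 0.46. Ano5, 646717 bases past Nell1, rose by 0.38 (edgeR adjusted p = 0.0305, not called without hypothyroid library 1 or 5 or euthyroid library 3, 4 or 5, up to 0.0916), and Slc6a5, before Nell1, had 34 counts over the hypothyroid and 18 over the euthyroid libraries and was not tested. Overlaps limit a few of these values, since the labels do not say whether reads kept their strand. In the GENCODE annotation the antisense transcript Gm14866 covers 25.8% of the 50-base windows of the Gdpd2 transcript. Reads from those windows could have come from either gene. The annotated spans of Nell1os and Atp8a1 also overlap Nell1 and Shisa3 on the opposite strand, but with no shared 50-base window of transcript. Tll2, Wfdc18, Cdh26 and Shisa3 shared no 50-base window with another gene's transcript, and Nell1 shared 0.320% with Cables2.

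**Figure D5:**
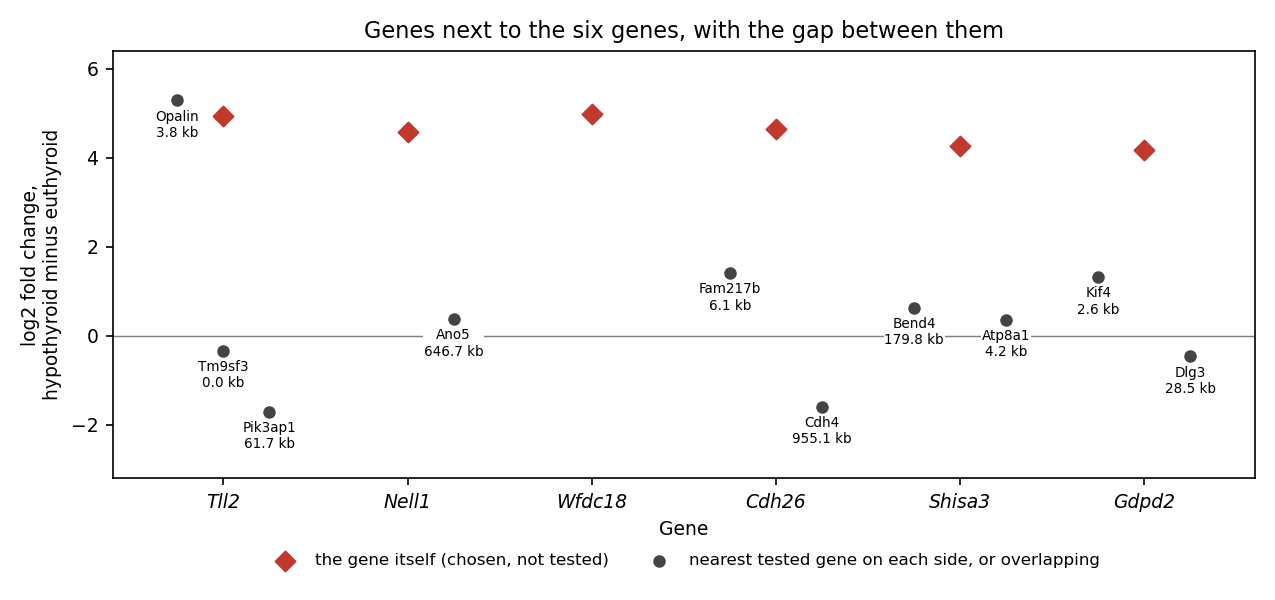
Log2 fold change (hypothyroid minus euthyroid) of each gene (diamond) and of the nearest tested genes before and after it in genome order or overlapping it (points), labelled with the gap in kilobases. Opalin is the only neighbour at the height of its member, and Wfdc18 has no tested neighbour.

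Placed on the per-length scale of the whole table, the members came to very different levels. Among 18725 genes ranked by TPM, Wfdc18 stood at 390 in hypothyroid and 10121 in euthyroid libraries, Nell1 at 708 and 10507, and Tll2 at 2307 and 12655. Gdpd2 stood at 7595 and 13714, Shisa3 at 7987 and 13896, and Cdh26 at 9066 and 14595.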

How the data were processed

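RNA was sequenced from 10 libraries as single-end reads of 50 bases, per the labels' protocols. The submitters' processing notes list RSEM 1.2.12, Bowtie2 2.2.5 and HISAT2 2.0.4, in no order, with GRCm38.p6. The authors deposited expected counts per gene, and also FPKM and TPM values, which are adjusted for gene length. 18 columns of scaled values and group means were not used. Expected counts were rounded, filtered with filterByExpr of edgeR 4.0.16 (minimum count 10), scaled with TMM and put through its two-sided quasi-likelihood test with robust fit. CPM values use the TMM scaling, and SE is the log2 fold change over the root of F. Alternatives used DESeq2 1.42.0 and limma 3.58.1 on log2(FPKM or TPM + 1), in R 4.3.3. On simulated data the test was checked for known changes. Over 20 pairs within a group the chi-square per gene was 5.39 to 15.7, so no library was a duplicate.

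The members, lists and tests were chosen with earlier results of these data known. Genes named were the members, their paralogs passing the filter, the 3 called genes with the largest change per list (mean at least 1 CPM), the 3 nearest profiles, chromosome neighbours and genes ranked around the members, with Hr and Klf9. Others (Otor, Coch, Col2a1, Col9a1, Slc26a5, Myo7a, Dpp10, Aqp5, Kcnj10, Dct, Alpl, Tgfbi, Aqp1, Matn1, Pecam1, Cdh5, Prox1, Lrp5, Col1a2, Ogn, Bgn, Pcolce2, Runx2, Cntnap4, Atraid, Itgb1, Cdh1, Cdh2, Ctnnb1, Ctnna1, Ctnnd1, Itga4, Itgae, Itgb7, Fzd1, Fzd2, Fzd4, Fzd6 and Axin2) were named after their values were seen.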

Additional observations from a re-analysis of the deposited data

Results flagged for a closer look

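Among 89 groups of 5 libraries (45 genes), 5 held a library that stood apart by Dixon's criterion, where chance flags about 1 in 20 groups. None was a value of the 6 members. In Col7a1, hypothyroid library 4 was low at 5.585 CPM, with the other 4 at 7.62 to 8.05 CPM. Shisa7 had 12.06 CPM in euthyroid library 4, with the others at 13.1 to 13.4 CPM. Wfdc10 had 1.352 CPM in euthyroid library 4, with the others at 0.677 to 0.864 CPM. Hypothyroid library 3 had 0.0 CPM of Wfdc16 and the others 0.0462 to 0.0475 CPM, which are single counts. Hypothyroid library 1 had 0.09353 CPM of Wfdc8, which is 2 counts, and the others 0.0 CPM.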

How the results depend on the processing

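In the 17 settings that kept counts, leaving out single libraries and a Y-linked covariate included, the 6 members stayed between 4.04 (Gdpd2) and 5.26 (Wfdc18) on the log2 scale. Pseudocounts shrank the low ones: with log2(FPKM + 1), filtered or not, Tll2 was 4.24, Cdh26 2.62, Shisa3 2.77 and Gdpd2 2.87, and with log2(TPM + 1) Cdh26 was 3.44, Shisa3 3.46 and Gdpd2 3.52. Genes higher and lower numbered 5603 and 5064, 8650 and 2928 with library sizes alone, 8930 and 3205 on log2(FPKM + 1), 8931 and 3235 with 0.1 added, 8473 higher on TPM and 2682 lower on filtered FPKM. The share higher was 52.5%, 74.7% with library sizes alone, 73.6% on FPKM, 73.4% with 0.1 added, 74.0% filtered and 70.8% on TPM. The median of all genes was 0.04, 0.30 with library sizes alone, 0.15 with upper quartile factors, 0.22 on log2(FPKM + 0.1) and 0.24 on filtered FPKM.

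List counts moved as follows, and the cause was not tested. Among Nell1 partners 5 were lower, 2 with library sizes alone, 3 by upper quartile, 2 on either FPKM or TPM and 1 on filtered FPKM. Among Cdh26 partners 1 was higher, 4 with library sizes alone or FPKM, 2 with upper quartile factors and 3 on TPM, and 9 were lower, 4 in those settings other than upper quartile. Among Wnt and FGF outputs 3 were higher, 8 with library sizes alone or FPKM and 7 on TPM. Among WAP genes 1 was higher, 2 with library sizes alone, with log2(FPKM + 0.1) or filtered FPKM, and 0 to 1 without single libraries, and 4 were lower, 7 without a count filter or on FPKM or TPM. In the Shisa list 14 were lower, 9 on filtered FPKM.

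Replicate numbers did not pair the libraries (correlations of same-numbered libraries -0.0774 to 0.108, 1 of 5 best with its own number). With the replicate block 10392 rather than 10667 genes were called, members ran from 4.18 to 4.96, and the WAP list had 0 higher. Euthyroid levels of Cdh26, Gdpd2 and Shisa3 rest on 55, 106 and 137 counts.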
